A study of Mus musculus with 6 samples.

Results

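The proteasome is the protease of the cytosol and nucleus that breaks down proteins tagged with ubiquitin. Its barrel, the 20S core, is built of alpha and beta rings, and 3 of its beta subunits cut peptide bonds. The 19S regulatory particle sits on the end of the barrel, where its base unfolds the substrate with a ring of ATPases and its lid removes the ubiquitin. In cells exposed to interferon the cutting subunits are replaced by immunoproteasome subunits, which favour peptides for antigen presentation. Embryonic stem cells depend on proteasome activity for protein quality control, and PML nuclear bodies are known to recruit proteasomes.

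Proteasome genes were taken as all genes of the deposited RNA table named Psma to Psmg followed by a number and at most 1 letter. This gave 49 of the 24421 genes in the table. They cover the subunits of the core (Psma and Psmb) and of the regulatory particle (Psmc and most Psmd), the alternative activators (Psme), an inhibitor (Psmf1) and assembly chaperones (Psmg and some Psmd). The RNA came from mouse embryonic stem cells of the line E14, kept for 15 h in 10 µM paraquat, a compound that makes cells produce superoxide by cycling between redox states. The tested cells were Pml-/- (n = 2 libraries) and were set against wild-type cells (n = 2 libraries). Both genotypes received paraquat and grew in serum medium with leukemia inhibitory factor, CHIR99021 and PD0325901, so the comparison sets Pml-/- against wild-type cells under paraquat and gives no response to paraquat. The sources used here do not say whether the knockout cells are 1 clone or whether libraries of the same genotype are separate cultures, so the spread behind each p-value may be technical. Differences below are Pml knockout minus wild type. CPM is the number of reads per 1000000 reads counted in genes, and log2 fold changes are on the log2(CPM + 1) scale, which understates changes of low genes. Gene lengths were not used, so levels are compared between groups and not between genes.

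The libraries held 38150397 and 43715807 reads in the knockout and 31384794 and 44130093 reads in wild type. Pml itself stood at 78.7 and 89.7 CPM in the knockout, against 238 and 228 CPM in wild type. Which part of the gene was disrupted is not stated in the labels. Embryonic stem cell markers (8 genes, among them Pou5f1 and Nanog) summed to 6186 and 6283 CPM in the knockout and to 6022 and 6123 CPM in wild type. Single markers of this list went opposite ways and passed the test used below (limma): Zfp42 fell by 16.9% (adjusted p = 0.00251), while Tfcp2l1 rose by 21.9% (0.0241) and Tdgf1 by 12.8% (0.0444). The call of Tfcp2l1 ended without knockout library 1 (limma adjusted p = 0.0546), knockout library 2 (0.0604) or wild-type library 1 (0.319), and that of Tdgf1 without knockout library 2 (0.186), wild-type library 1 (0.0815) or wild-type library 2 (0.196). Fibroblast markers (6 genes) summed to 5.82 and 6.52 CPM in the knockout and to 7.58 and 6.84 CPM in wild type, and markers of differentiated lineages (6 genes) to 20.5 and 23.7 CPM in the knockout and to 26.7 and 27.03 CPM in wild type. Most of the last sum was Sox1, which fell by 27.8% (limma adjusted p = 0.0105), a call that ended with no filter on low values (0.0555). Sox1 and Zfp42 lie on chromosome 8, where 70.1% of 653 tested genes had estimates below 0, beside 51% of all tested genes. The part of that chromosome's shift in their values was not tested. The part of the markers above in the results below was not tested either. Ddx3y, a Y-linked gene chosen after its values were seen, stood at 8.91 and 8.53 CPM in the knockout and at 160.5 and 163.9 CPM in wild type, so the cells of the groups differed in more than Pml, and the part of that difference in the results below was not tested. The label of wild-type library 2 names a DNA library kit, and the counts of members without overlap, the summed levels and the call of Psmc1 are also given without it.

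Proteasome genes were nearly level between the genotypes, with a slight shift towards lower values in the knockout. Of the 46 members with a mean of at least 1 CPM, 1 fell and 0 rose at an adjusted p of 0.05 (limma, Benjamini-Hochberg over 12710 genes), where 3.45% of all tested genes fell and 1.95% rose. The member that fell was Psmc1, an ATPase of the 19S base. An unadjusted p under 0.05 was found for 6 members, all with lower values in the knockout, where 19.3% of all tested genes reached it in either direction. A test of the whole reads behind the CPM values, with edgeR, also called 1 member lower and 0 higher of 47, with 2.71% of 14782 genes lower and 1.48% higher. Of the 49 members, 1 had in the authors' deposited table a false discovery rate under 0.05, again Psmc1, as did 3.8% of all genes there. In bulk RNA, fewer cells of a kind and less RNA per cell cannot be told apart.

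The estimates were small and mostly below 0. The median log2 fold change of the 46 members was -0.059, with a range of -0.19 to 0.10, beside a median of -0.0029 over all tested genes. These medians lay closer together when any library was left out. They were -0.044 and -0.0101 without knockout library 1, and -0.0416 and 0.00236 without knockout library 2. Without wild-type library 1 they were -0.041 and 0.00707, and without wild-type library 2 -0.0482 and -0.0142. Estimates lay below 0 for 34 members (73.9%), beside 51% of all tested genes. In 21 members both knockout libraries lay below both wild-type libraries, a share of 45.7% where 25.5% of all tested genes showed this. In 5 members both knockout libraries lay above both wild-type libraries, which is 10.9% beside 23.8% of all tested genes. The other 20 overlapped. Without wild-type library 2, 28 members lay below (60.9%, beside 40.8% of all tested genes) and 6 above (13%, beside 34%). Subunits of 1 complex are not independent of each other, so these shares are a description. The 95% interval of the difference stayed within 1.3-fold in either direction for 44 of the 46 members, the exceptions being Psme2b and Psmb10, which had few reads.

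**Figure D1:**
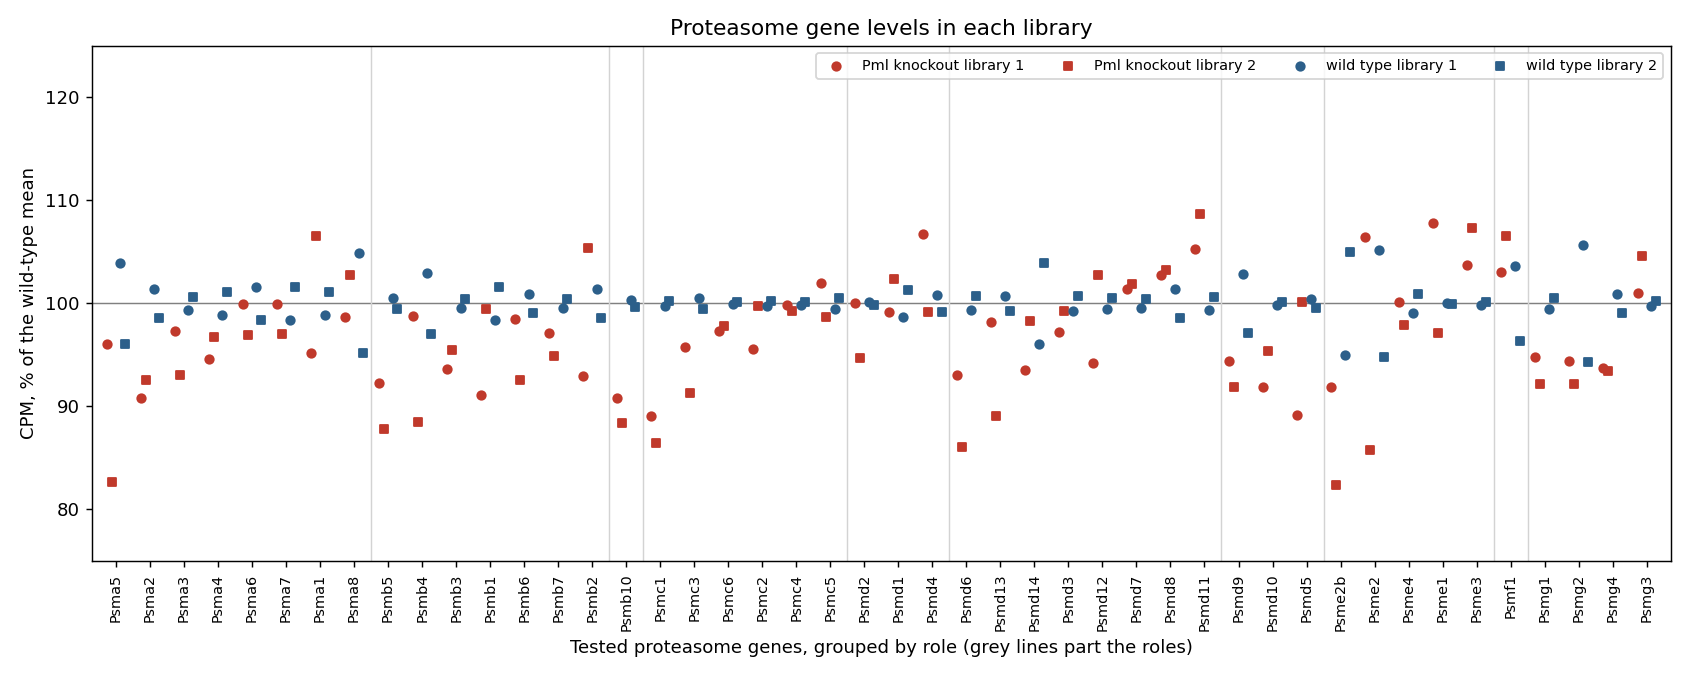
CPM of each of the 46 tested proteasome genes in each library as a percentage of its wild-type mean, grouped by role, with Pml knockout libraries in red left of wild-type libraries in blue. Most red points lie a few percent below 100, and a few members such as Psmd11 and Psme3 lie above it.

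**Figure D2:**
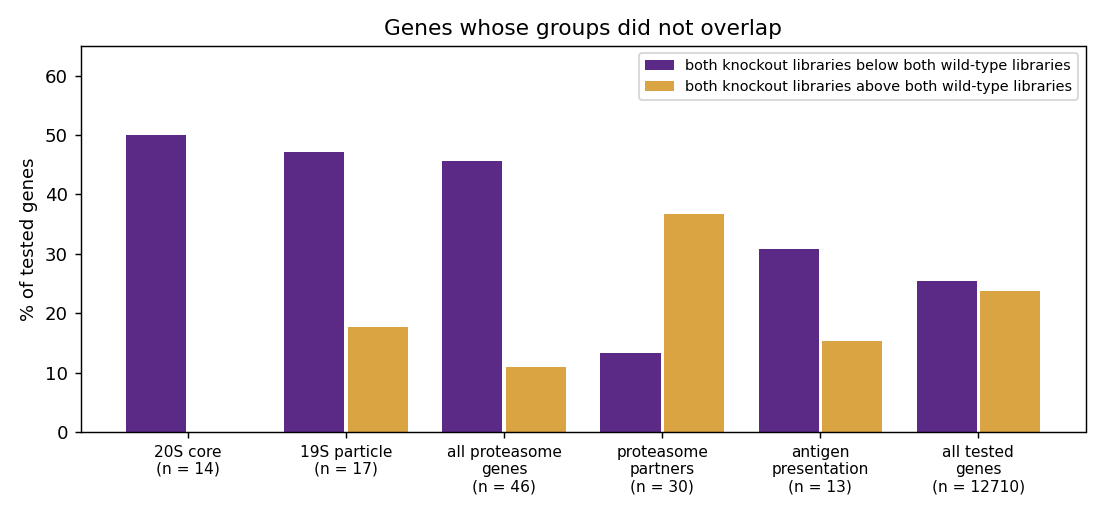
Share of tested genes in percent whose 2 knockout libraries both lay below (purple) or both above (gold) the 2 wild-type libraries, for gene lists and for all tested genes. The tested proteasome genes stand at 45.7% below and 10.9% above, and all tested genes at 25.5% and 23.8%.

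The promoters of 4 members, picked by their differences between the genotypes, are shown. They are Psmc1, the only member called, and Psmd6, the lid subunit next to it in p. The others are Psmb5, the replaced catalytic subunit with the largest difference, and Psmd11, the member with the largest positive estimate. Any link between these sequences and the differences was not tested. Each line gives the 250 bases before the transcription start, 5′ to 3′ on the gene's strand, from RefSeq (GRCm38.p6). The windows lie on the plus strand at chr12:100109952-100110201 for Psmc1 and chr11:80428365-80428614 for Psmd11, and on the minus strand at chr14:14120946-14121195 for Psmd6 and chr14:54617996-54618245 for Psmb5. Capitals mark matches, on either strand, to any of 7 motifs, which are named in the next paragraph.
Psmc1: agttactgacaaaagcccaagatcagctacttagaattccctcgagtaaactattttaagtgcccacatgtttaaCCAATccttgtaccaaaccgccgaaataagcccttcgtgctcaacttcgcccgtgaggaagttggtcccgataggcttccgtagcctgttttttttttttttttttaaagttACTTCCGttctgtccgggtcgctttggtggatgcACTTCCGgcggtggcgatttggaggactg
Psmd6: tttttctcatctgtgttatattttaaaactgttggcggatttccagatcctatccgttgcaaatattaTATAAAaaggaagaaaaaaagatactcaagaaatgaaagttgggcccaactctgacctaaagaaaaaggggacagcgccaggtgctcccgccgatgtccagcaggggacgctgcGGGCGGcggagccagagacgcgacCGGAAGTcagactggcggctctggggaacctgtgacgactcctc
Psmb5: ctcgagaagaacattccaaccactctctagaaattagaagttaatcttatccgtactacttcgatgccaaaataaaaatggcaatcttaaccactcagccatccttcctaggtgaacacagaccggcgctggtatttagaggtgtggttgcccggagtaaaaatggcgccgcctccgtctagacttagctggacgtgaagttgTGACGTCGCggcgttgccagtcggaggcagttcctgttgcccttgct
Psmd11: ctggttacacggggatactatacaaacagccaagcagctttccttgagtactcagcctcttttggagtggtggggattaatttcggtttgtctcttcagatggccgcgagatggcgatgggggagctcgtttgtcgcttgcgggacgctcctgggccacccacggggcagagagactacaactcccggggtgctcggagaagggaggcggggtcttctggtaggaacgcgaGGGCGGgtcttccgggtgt

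Of the 49 members, 41 had a promoter in the table, with 44 windows in all, and these were compared with the 32851 windows of all genes. The ACTTCCG motif, bound by ETS factors, stood 63 and 29 bases before the start of Psmc1 and 44 bases before that of Psmd6. It was present in 22.7% of member windows, beside 4.92% of all windows. The antioxidant response core TGACNNNGC, through which NRF1 (Nfe2l1) and NRF2 act on proteasome genes, stood 47 bases before the start of Psmb5, and was present in 11.4% of member windows and 10.2% of all. Its variant TGAGNNNGC was in 22.7% of member windows and 14.4% of all. CCAAT, the NF-Y box, was in 31.8% and 33.8%, and the GC box GGGCGG in 52.3% and 32.7%. Of the other motifs, TATAAA was in 9.09% of member windows and 12.4% of all, and CACGTG in 9.09% and 6.02%. Member windows were richer in G and C, with a median of 57.4%, beside 52.4% for all windows. These matches are letters in a window, and binding was not measured.

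The 20S core stood slightly lower in the knockout. Its 14 genes (Psma1 to Psma7 and Psmb1 to Psmb7) summed to 2292 and 2274 CPM in the knockout, against 2401 and 2381 CPM in wild type. The knockout libraries did not overlap the wild-type libraries, and the means were 2283 ± 12.3 and 2391 ± 13.9 CPM (SD, n = 2 each), a difference of -4.53%, or -4.92% without wild-type library 2. With 2 libraries in each group an exact two-sided permutation test cannot go below p = 0.333, which was its value here. None of the 14 genes passed the limma threshold, where 3.45% of all tested genes fell and 1.95% rose. By edgeR 0 of the 14 passed, beside 2.71% lower and 1.48% higher of all genes it tested. By limma, 3 had an unadjusted p under 0.05 (21.4%, beside 19.3% of all tested genes). Estimates lay below 0 for 13 (92.9%, beside 51% of all tested genes).

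The alpha rings form the gated outer ends of the barrel. Among their genes, Psma5 had the lowest estimate, at 89.4 and 76.9 CPM in the knockout against 96.7 and 89.3 CPM in wild type (log2 fold change -0.16, SE 0.068, limma adjusted p = 0.202). Its first knockout library and second wild-type library were level, and its second knockout library was the lowest of the 4. Psma2, chosen after its values were seen, stood at 175.8 and 179.2 CPM in the knockout and at 196 and 191 CPM in wild type, with no overlap (log2 fold change -0.12, SE 0.046, limma adjusted p = 0.139). Psma3 and Psma4 also did not overlap, at -4.80% and -4.36%, while Psma1, Psma6 and Psma7 overlapped and differed by 0.90%, -1.56% and -1.53%. Psma8 encodes an alpha subunit known from testis proteasomes, where it replaces the product of Psma7. It was read in every library, at 26.2 and 27.3 CPM in the knockout and 27.8 and 25.2 CPM in wild type, and its groups overlapped. Reads of Psma8 came to 16.4 and 17.6% of those of Psma7 in the knockout and to 17.6 and 15.5% in wild type, without correction for length.

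The beta rings hold the cutting sites. All 7 constitutive beta genes had estimates below 0 (beside 51% of all tested genes), from -0.15 for Psmb5 to -0.015 for Psmb2. Psmb5, the chymotrypsin-like subunit and the main target of bortezomib, stood at 82.9 and 78.99 CPM in the knockout and at 90.4 and 89.4 CPM in wild type (log2 fold change -0.15, SE 0.054, limma adjusted p = 0.131). Psmb6, the caspase-like subunit, stood at 238 and 224 CPM in the knockout and at 244 and 239.6 CPM in wild type. Psmb7, the trypsin-like subunit, stood at 230.4 and 225 CPM in the knockout and at 236 and 238 CPM in wild type. For these 3 cutting subunits the knockout libraries lay below the wild-type libraries without overlap, at -9.96%, -4.46% and -3.98%. Of all tested genes 25.5% showed this order, and none of the 3 subunits passed the test. Among the other 4, which are structural, Psmb4 had the lowest estimate, at 275 and 246 CPM in the knockout and 286 and 270.2 CPM in wild type, with overlapping groups (limma adjusted p = 0.362). Psmb3 did not overlap, at -5.44%, and Psmb1 and Psmb2 overlapped, at -4.71% and -0.85%.

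Of the immunoproteasome subunits, Psmb8 was near the limit of detection in both genotypes, Psmb9 was low, and Psmb10 had 229 to 320 reads a library. Psmb8, which takes the place of Psmb5, had 0 and 2 reads in the knockout and 0 and 2 reads in wild type. A count of 0 allows up to 3 reads, which is 0.0786 and 0.0686 CPM in the knockout libraries and 0.0956 and 0.068 CPM in the wild-type libraries, so no difference was detectable at this depth. These limits cover counting error only. Psmb9, which takes the place of Psmb6, had 32 and 29 reads in the knockout and 22 and 43 reads in wild type, which is 0.839 and 0.663 CPM against 0.701 and 0.974 CPM. Its groups overlapped (edgeR adjusted p = 0.864). Psmb10, which takes the place of Psmb7, was the only one above the filter, at 6.61 and 6.43 CPM in the knockout and 7.30 and 7.25 CPM in wild type. Its knockout libraries were lower without overlap, and it did not pass the test (log2 fold change -0.14, 95% interval -0.40 to 0.12, limma adjusted p = 0.588). Psmb11, the thymus-specific counterpart, had 0 reads in the knockout and 0 and 1 in wild type.

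The immunoproteasome genes were also set against the subunits they replace. Psmb8, Psmb9 and Psmb10 together came to 7.44 and 7.14 CPM in the knockout and to 7.9975 and 8.27 CPM in wild type, a difference of -10.4%, or -8.84% without wild-type library 2. Most of these reads were of Psmb10. Together they equalled 1.35% of the reads of Psmb5, Psmb6 and Psmb7 in both knockout libraries, and 1.40 and 1.46% in the wild-type libraries. For the sum and for the percentage the groups did not overlap, and the exact two-sided permutation p was 0.333 for each, the smallest it can be. The difference in the percentage was -5.53% of the wild-type value, and -3.63% without wild-type library 2. Taken singly, Psmb10 equalled 2.87 and 2.85% of Psmb7 in the knockout and 3.09 and 3.04% in wild type, without overlap. Psmb9 equalled 0.352 and 0.296% of Psmb6 in the knockout and 0.287 and 0.407% in wild type, with overlap (exact permutation p = 1), and Psmb8 was level, so the lack of overlap in the sum and the percentage came with Psmb10. Immune cell markers, whose cells carry immunoproteasomes, summed to 209 and 211 CPM in the knockout and to 228 and 227 CPM in wild type over 5 genes. Most of this was Laptm5, at 187.3 and 187.7 CPM in the knockout and 202.4 and 205 CPM in wild type, while Ptprc, which marks all white blood cells, had 0 reads in every library. Whether any immune cells were present, and any part of them in the values of Psmb9 and Psmb10, was not tested.

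**Figure D3:**
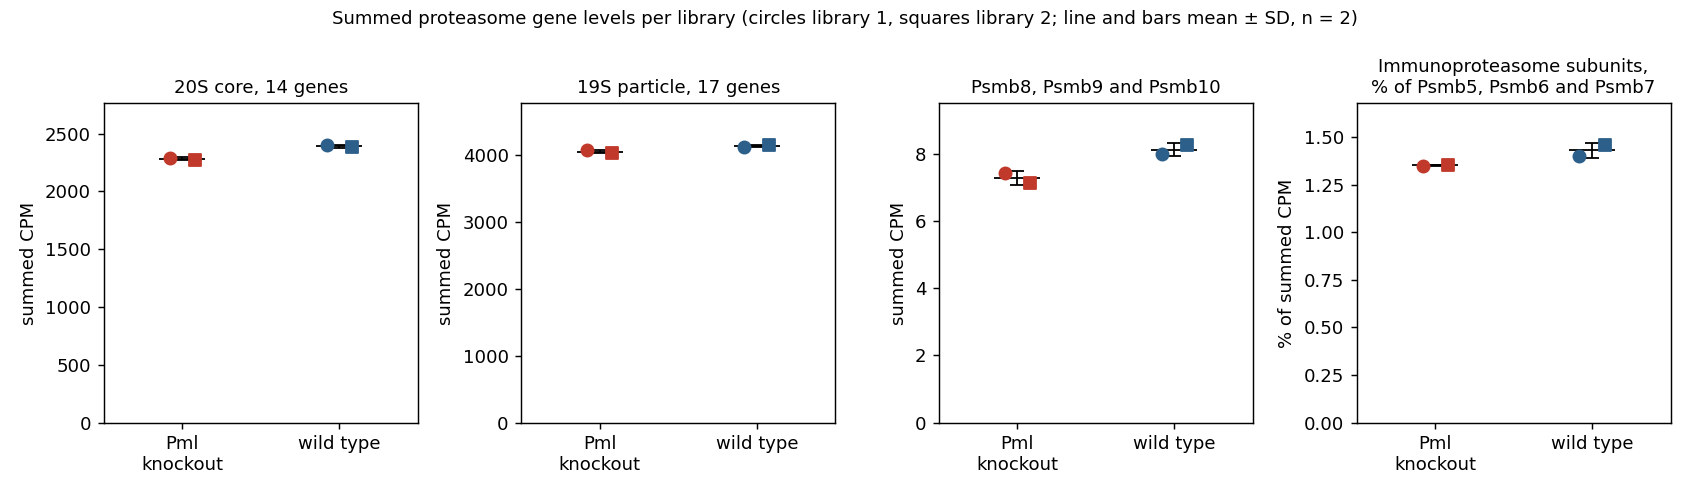
Summed CPM of the 20S core, the 19S particle and the 3 immunoproteasome subunits, and the last as a percentage of the 3 subunits they replace, per library, with mean ± SD (n = 2). Knockout libraries lie below wild-type libraries in each panel, by -4.53% for the core and -10.4% for the immunoproteasome subunits.

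The 19S regulatory particle also stood slightly lower in the knockout. Its 17 genes summed to 4074 and 4035 CPM in the knockout and to 4130 and 4153 CPM in wild type, a difference of -2.10% without overlap (exact two-sided permutation p = 0.333), or -1.82% without wild-type library 2. The ratio of summed core to summed regulatory reads was 0.562 and 0.564 in the knockout and 0.581 and 0.573 in wild type, again without overlap and with the same p from the exact permutation test. Of the 17 genes, 1 fell and 0 rose (limma, and likewise edgeR), where 3.45% of all tested genes fell and 1.95% rose by limma. By limma, 3 had an unadjusted p under 0.05, all lower in the knockout (17.6%, beside 19.3% of all tested genes in either direction). Estimates lay below 0 for 11 (64.7%, beside 51% of all tested genes) and above 0 for 6. Both knockout libraries lay below both wild-type libraries in 8 of the 17 (47.1%, beside 25.5% of all tested genes). They lay above in 3 (17.6%, beside 23.8%). A large part of the difference in the sum came with Psmc1. Its mean was 261.6 CPM in the knockout and 298.1 CPM in wild type, beside 4054.6 and 4141.4 CPM for the sum.

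Psmc1, also called Rpt2, is an ATPase whose tail docks into the alpha ring and helps open its gate. It lies on chromosome 12 from 100110202 to 100123364 (mm10). Psmc1 stood at 265.5 and 257.6 CPM in the knockout and at 297 and 299 CPM in wild type, from 9335 to 13188 reads a library. Both knockout libraries were lower by far more than the libraries of a group differed. It fell by 0.19 on the log2 scale (SE 0.043, 95% interval -0.28 to -0.096, limma adjusted p = 0.019), which leaves 0.877 of the wild-type level. The call held under edgeR (adjusted p = 0.0363), and the authors' deposited table gave it a false discovery rate of 0.0334. It ended without wild-type library 1 (adjusted p = 0.0843), wild-type library 2 (0.0704) or knockout library 2 (0.0604), and with no filter on low values (0.0604), while the estimate stayed between -0.21 and -0.17. In each fit without a library, the single library left in its group is assumed to vary like the other group's pair.

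The other base ATPases had estimates nearer 0 and did not pass the test. Psmc3 stood at 302 and 288 CPM in the knockout and at 317 and 314 CPM in wild type, without overlap (log2 fold change -0.096, SE 0.044, limma adjusted p = 0.25). Psmc2, Psmc4 and Psmc6 did not overlap either, although they differed by only -2.32%, -0.47% and -2.45%. Psmc5, the other extreme, stood at 272 and 263 CPM in the knockout and 265 and 268 CPM in wild type, with overlapping groups. Of the base subunits without ATPase activity, Psmd2, a scaffold, stood at 503.5 and 477 CPM in the knockout and at 504 and 502 CPM in wild type. Psmd4, a ubiquitin receptor, stood at 230.1 and 213.7 CPM in the knockout and at 217 and 213.7 CPM in wild type. Both overlapped between groups, as did the scaffold Psmd1 at 0.78%.

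Lid subunits had estimates on both sides of 0. None of the 8 passed the limma threshold, where 3.45% of all tested genes fell and 1.95% rose. By edgeR 0 of the 8 passed, beside 2.71% lower and 1.48% higher of all genes it tested. By limma, 1 had an unadjusted p under 0.05 (12.5%, beside 19.3% of all tested genes). Psmd6 was the lowest, at 129 and 119 CPM in the knockout and at 138 and 139.7 CPM in wild type, without overlap (log2 fold change -0.16, SE 0.052, limma adjusted p = 0.094). Without knockout library 1 the adjusted p was 0.0289 for Psmd6 and 0.0254 for Psma5 (limma), but there the spread comes from the wild-type pair, which was the closer pair for most members. Psmd11, which stabilises the 26S particle and raises its activity when abundant in human embryonic stem cells, was the highest of all members, at 193 and 199.6 CPM in the knockout and at 182.5 and 185 CPM in wild type. Its knockout libraries lay above the wild-type libraries, and it did not pass the test (log2 fold change 0.097, 95% interval -0.00070 to 0.19, limma adjusted p = 0.263). Psmd7 and Psmd8 were also higher without overlap, at 1.61% and 2.97%. Psmd13 and Psmd3 were lower without overlap, at -6.36% and -1.79%. Psmd12 and Psmd14, the deubiquitinase of the lid, overlapped, at -1.51% and -4.09%.

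**Figure D4:**
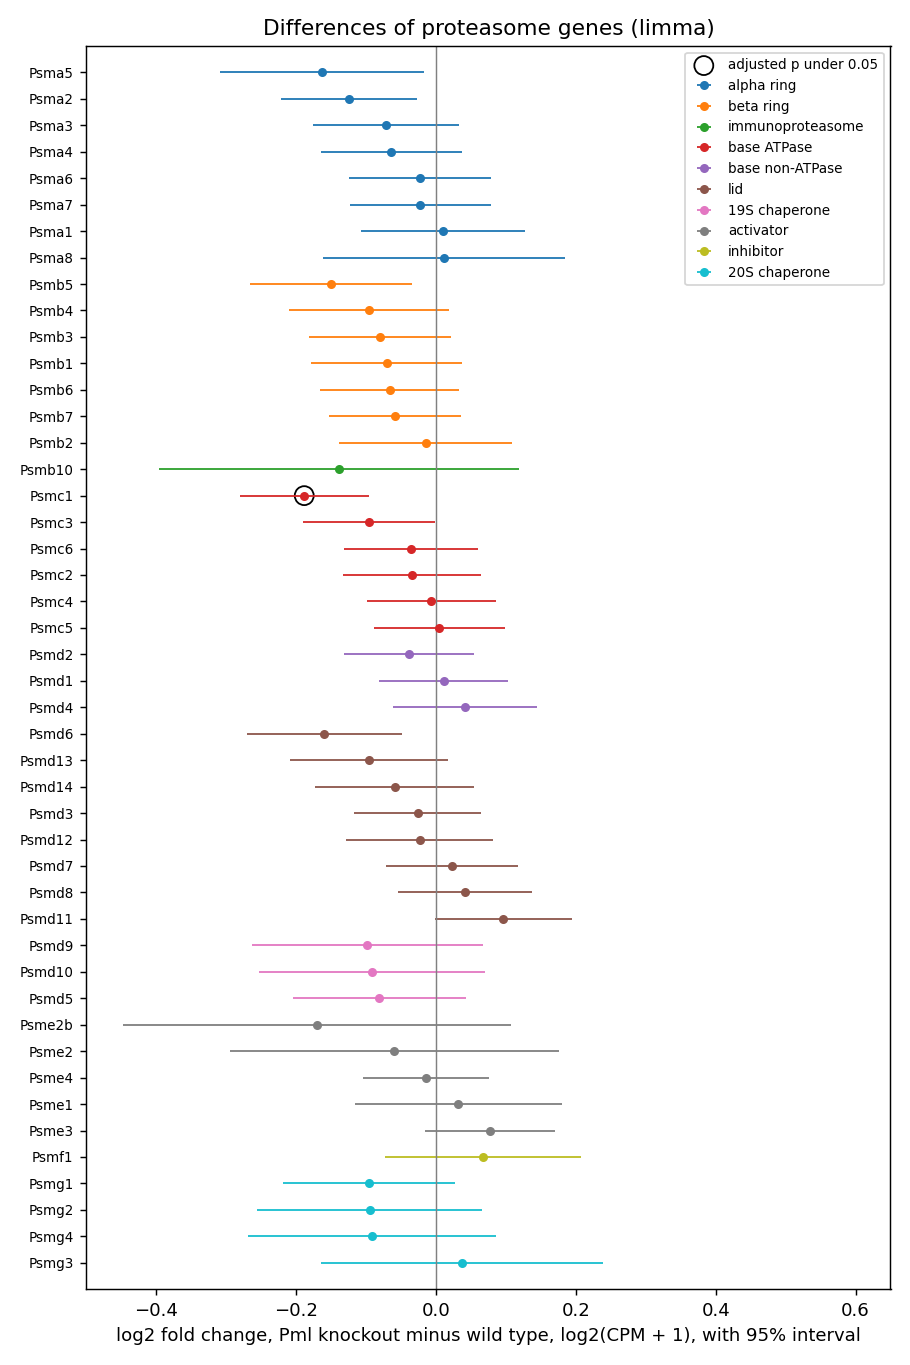
Log2 fold change (Pml knockout minus wild type) with 95% interval for the 46 tested proteasome genes from limma, coloured by role, with the member past an adjusted p of 0.05 ringed. Estimates run from -0.19 for Psmc1 to 0.097 for Psmd11, and most intervals include 0.

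The 3 chaperones that assemble the regulatory particle all had estimates below 0 (beside 51% of all tested genes), from -0.098 to -0.081. Psmd9 stood at 27.1 and 26.4 CPM in the knockout and at 29.6 and 27.9 CPM in wild type, without overlap (limma adjusted p = 0.541). Psmd10, the oncoprotein gankyrin, is X-linked and did not overlap either, at -6.34%, while Psmd5 overlapped, at -5.35%. Of the 4 chaperones of the core, Psmg1 had the lowest estimate, at 61.8 and 60.1 CPM in the knockout and 64.8 and 65.6 CPM in wild type (limma adjusted p = 0.402). Psmg4 did not overlap, at -6.42%, and Psmg2 overlapped, at -6.68%. Psmg3 was the exception, at 15.2 and 15.7 CPM in the knockout and 15.01 and 15.1 CPM in wild type, slightly higher and without overlap.

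The activators that bind the core in place of the 19S particle did not share a direction. Psme1 and Psme2 encode the interferon-inducible PA28 ring. Psme1 stood at 47.3 and 42.7 CPM in the knockout and at 43.9 CPM in both wild-type libraries. Psme2 stood at 17.3 and 13.95 CPM in the knockout and at 17.1 and 15.4 CPM in wild type. Both overlapped between groups. Psme2b, a copy of Psme2 that may share reads with it, stood at 5.79 and 5.19 CPM in the knockout and at 5.99 and 6.62 CPM in wild type, and levels of both copies are uncertain. Psme3, the nuclear PA28 gamma, stood at 292 and 302 CPM in the knockout and at 281 and 282 CPM in wild type, higher without overlap (log2 fold change 0.077, SE 0.043, limma adjusted p = 0.362). Psme4, the nuclear activator PA200, overlapped, at -0.97%. The inhibitor Psmf1 stood at 47.7 and 49.3 CPM in the knockout and at 47.95 and 44.6 CPM in wild type, and its groups overlapped.

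The 2 libraries of a group differed more for members in the knockout than in wild type. The median absolute log2 difference between them was 0.048 in the knockout and 0.021 in wild type, and it was larger in the knockout for 35 of the 46 members. This spread was not computed over all tested genes, so whether it is particular to members was not tested. The median over members, relative to the wild-type mean, was -0.042 in library 1 and -0.044 in library 2, beside 0.0025 and -0.010 over all tested genes. Psmb10 and Psmd7 lie on chromosome 8, whose 653 tested genes had a median of -0.059, and their estimates were -0.14 and 0.023. Both knockout libraries lay below both wild-type libraries in 41.3% of these 653 genes, beside 25.5% of all tested genes. The part of that chromosome's shift in the value of Psmb10, and in the immunoproteasome sum and percentage, was not tested. Psmd10 lies on the X chromosome, whose 433 tested genes had a median of 0.022, against -0.091 for Psmd10.

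Genes that work with the proteasome had estimates on both sides of 0. Of 34 symbols listed, 30 were in the table and tested, 2 rose and 0 fell (limma), beside 1.95% of all tested genes that rose. By edgeR 1 rose, Rad23b, and 0 fell. At an unadjusted p under 0.05 (limma) there were 5 higher and 1 lower, together 20% beside 19.3% of all tested genes. Both knockout libraries lay above both wild-type libraries for 11 of the 30 (36.7%, beside 23.8% of all tested genes). They lay below for 4 (13.3%, beside 25.5%), and the median was 0.0068. Nfe2l1, which encodes NRF1, the transcription factor that raises proteasome genes when proteasome activity is short, rose to 397 and 393 CPM in the knockout, against 351 and 359 CPM in wild type (log2 fold change 0.15, SE 0.042, limma adjusted p = 0.0479). This call was marginal and ended under edgeR (0.071), under TMM scaling (0.0644), with no filter (0.112) and without each of the 4 libraries in turn (highest adjusted p = 0.316, without wild-type library 1). Rad23b, a shuttle that brings ubiquitinated proteins to the proteasome, rose to 498 and 538 CPM in the knockout, against 453 and 458 CPM in wild type (log2 fold change 0.18, SE 0.046, limma adjusted p = 0.0285), a call that ended without knockout library 2 (0.12), without wild-type library 1 (0.113) and with no filter (0.106).

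Partners that are built into the particle or assemble it did not pass. Pomp, the maturation factor of the core, stood at 91.3 and 93.7 CPM in the knockout and at 103 and 99.2 CPM in wild type, lower without overlap (log2 fold change -0.13, SE 0.052, limma adjusted p = 0.194). Adrm1, a ubiquitin receptor of the base, stood at 154.6 and 145.6 CPM in the knockout and at 153 and 147 CPM in wild type. Shfm1, the small lid subunit also known as Sem1, stood at 53.2 and 44.6 CPM in the knockout and at 55.2 and 52.4 CPM in wild type. The groups of Adrm1 and of Shfm1 overlapped.

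Genes of antigen presentation and interferon signalling, which the immunoproteasome serves, gave 0 calls among 13 tested of 16 (limma). Of all tested genes, 3.45% fell and 1.95% rose. By edgeR there were 0 calls of 16, beside 2.71% lower and 1.48% higher of all genes it tested. At an unadjusted p under 0.05 (limma) there were 1 higher and 1 lower (15.4%, beside 19.3% of all tested genes). The median of the 13 was -0.055. Both knockout libraries lay below both wild-type libraries for 4 of the 13 (30.8%, beside 25.5% of all tested genes). They lay above for 2 (15.4%, beside 23.8%). Tap1 and Tap2, the peptide transporter genes, lie beside Psmb9 and Psmb8 on chromosome 17 and were chosen after their values were seen. Tap2 was under the filter, with 18 and 16 reads in the knockout and 33 and 54 reads in wild type, a fold of 0.368 in CPM (edgeR adjusted p = 0.0552), and the authors' deposited table gave it a false discovery rate of 0.00105. Tap1 stood at 7.23 and 5.58 CPM in the knockout and at 8.28 and 8.09 CPM in wild type, lower without overlap (limma adjusted p = 0.198). Stat2, also chosen after its values were seen, went the other way and was higher without overlap (limma adjusted p = 0.195). It stood at 56.7 and 53.4 CPM in the knockout and at 49.3 and 49.7 CPM in wild type.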

How the data were processed

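RNA libraries of 2 Pml knockout and 2 wild-type samples were used; the 2 chromatin samples were not analysed here. The submitters' processing notes name cutadapt, TopHat and edgeR with mm10. The sources used here give neither versions nor the annotation, the use of strand or the treatment of reads that match several genes, so close copies are uncertain. The authors deposited, for each library, CPM, and for their comparison a log2 fold change (wild type over knockout), a mean log2 CPM, a p-value and a false discovery rate.

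The deposited CPM values were fitted by limma-trend on log2(CPM + 1), with limma 3.58.1 under R 4.3.3. Genotype was the sole term, genes needed a mean CPM of 1 or more (12710 genes), and p-values were adjusted by Benjamini-Hochberg over all these genes at a threshold of 0.05. CPM divided by the value of 1 read was whole for 100% of values (tolerance 0.001 reads), and edgeR 4.0.16 (quasi-likelihood, TMM, filterByExpr) on these reads called 620 of 14782 genes. The fit was tested on simulated counts with changes larger than that of Psmc1. This does not show whether a change as small as that of Psmc1 would be recovered. Summed levels were compared by exact permutation tests. All 49 members matched RefSeq symbols (GRCm38.p6). Members and lists were chosen with earlier results of these data known. Any member may be named; library values are given for called members, catalytic subunits and those they replace, Psme1, Psme2, and, among the other members of each role, those with the largest positive and the largest negative log2 fold change. Beside the 7 motifs, 2 longer ones were searched and are not reported. Alternatives were the pseudocount, filter, scaling, block, count test and each library left out.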

Additional observations from a re-analysis of the deposited data

How the results depend on the processing

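Psmc1 was the only member called lower as reported, with the TMM scaling, with a pseudocount of 0.25 and by edgeR. The number of members called lower was 0 with no filter on low values, 2 with the replicate number as a block (replicate block, adding Psmd6 with an adjusted p of 0.044) and 0 to 3 when libraries were left out in turn. No member was called higher under any alternative run. Over all genes the count of calls, 687 as reported, was 298 with no filter, 1198 with the replicate block and 367 to 869 when libraries were left out. The numbers pair the libraries only by name: deviations of same-numbered libraries correlated at 0.12, with 2 pairs. The median log2 fold change of members stayed below 0, at -0.0563 with TMM scaling, -0.0553 by edgeR and -0.0482 to -0.041 when libraries were left out, beside medians over all genes of -0.000635, -0.00103 and -0.0142 to 0.00707. The summed levels and the immunoproteasome ratio kept their direction under each alternative run, and the ratio, -5.53% as reported, was -7.36% to -3.63% when libraries were left out. Counts of members without overlap were also taken without wild-type library 2, an alternative chosen after seeing the data, and were 28 below and 6 above. In fits without a library, the lone library of a group is assumed to vary like the other group. The log ratio used the Psmb9 and Psmb10 pairs, since Psmb8 had libraries at 0. Of the 46 tested members, 14 changed sign when a library was left out, none of them called, and 32 did not. Their lowest and highest log2 fold changes were Psmb2 -0.104 to 0.0747, Psmc5 -0.0184 to 0.0281, Psmd4 -0.0115 to 0.0944, Psmd12 -0.085 to 0.0388, Psmd5 -0.164 to 0.00236, Psme1 -0.0412 to 0.106, Psma1 -0.0702 to 0.0915, Psma8 -0.0559 to 0.079, Psmd1 -0.0114 to 0.0335, Psmd2 -0.078 to 0.00121, Psme2 -0.206 to 0.0873, Psme4 -0.0302 to 0.00206, Psma6 -0.0453 to 0.000372, Psma7 -0.0449 to 0.000732. The cause of these differences was not tested. With 2 libraries a group, 1 library can decide a call as small as that of Psmc1.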
